A study of Rattus norvegicus with 8 samples.

Results

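The state of rat liver after dexamethasone and AICAR were given together was compared with liver of vehicle-treated rats, using 2 arrays of each group out of the 8 arrays of the study. Male Sprague-Dawley rats of 180 to 200 g received AICAR (0.7 g/kg, into the peritoneum) or saline and dexamethasone (1.5 mg/kg, into muscle) or saline, and the livers were taken 8 h later. The vehicle group received saline in place of both agents, and the other 2 groups of the study, with 2 arrays each, received dexamethasone alone or AICAR alone. All animals were of 1 sex and strain, every liver was taken at 1 time, and each agent was used at 1 dose. The members are the 31042 probe sets of the array that are not array controls, of 31099 in all, and they stand for 14217 named genes. Nothing in the labels ties the 2 arrays of a group to different rats, so p-values describe only how far these arrays spread, and that spread may be technical. The title and design of the study ask whether AMP-activated protein kinase alters the metabolic actions of glucocorticoids through p38 kinase and the glucocorticoid receptor.

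Dexamethasone is a synthetic glucocorticoid. It binds the glucocorticoid receptor, which enters the nucleus, raises genes of glucose production and amino acid breakdown in hepatocytes and lowers many inflammatory genes. AICAR is a nucleoside that cells phosphorylate to ZMP, a mimic of AMP that activates AMP-activated protein kinase, a sensor of low cellular energy that restrains the synthesis of fat, sterol and glucose. Hepatocytes make up most of the mass of liver, and the non-parenchymal cells around them include Kupffer cells (the resident macrophages), sinusoidal endothelial cells, stellate cells and lymphocytes.

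Levels are given on the log2 scale of the deposited values, so a difference of 1 is a 2-fold change. An error after ± is the standard error of the limma fit, with n = 2 arrays per group, and every adjusted p is limma's after Benjamini-Hochberg adjustment over all 31042 probe sets. Calls were made where this adjusted p was under 0.05. Statements that groups lay apart or did not overlap only describe the arrays. With 2 arrays per group, this also held for genes that were not called. Levels of different genes are not compared, since probe sets differ in how brightly they read.

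The comparison with vehicle gave 8350 calls among 31042 probe sets (26.9%), with 4130 higher (13.3%) and 4220 lower (13.6%). By gene, 4886 of 14217 were called (34.4%), of which 2264 were higher (15.9% of all genes) and 2622 lower (18.4%), and 9331 did not pass the test. Calls of 2-fold or more numbered 624 genes (4.39%), with 211 higher (1.48%) and 413 lower (2.9%). Without replicate 1 of the combination, the genes called higher numbered 1477. The livers of both agents stood as far from vehicle as between-group correlations of 0.9801 to 0.9813 (Pearson's r over all probe sets), against 0.9969 to 0.9979 for arrays of 1 group. All 8 arrays had medians between 5.22 and 5.27. The ratio of 3' to 5' signal for beta-actin, a sign of RNA length, differed with the groups: it was 2.26 and 2.20 on the log2 scale in vehicle and 1.77 and 1.83 after both agents. For GAPDH it was 0.61 and 0.60 in vehicle and 0.31 and 0.34 after both agents. RNA length and treatment cannot be told apart in this comparison. As a check of the tissue, albumin (Alb) read 14.72 and 14.69 in vehicle and 14.74 after both agents on each array, with a difference of 0.04 ± 0.07 (adjusted p = 0.76) that was -0.06 with cyclic loess between arrays.

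The hepatocyte and the non-parenchymal gene lists are given apart. Of 340 measured genes on the 18 hepatocyte lists, 119 were called higher and 115 lower, with a median difference of 0.03, beside -0.01 over all 14217 genes. Of the 119 higher calls, 45 came from the 3 lists of ribosomal proteins, the respiratory chain and endoplasmic reticulum stress, whose genes most cells use. In the other 15 hepatocyte lists, a split added after the values were seen, 74 of 275 genes were higher (26.9%) and 113 lower (41.1%), with a median of -0.11. Of 191 measured genes on the 12 non-parenchymal lists, 20 were called higher and 91 lower, with a median of -0.28. The shares called lower on the hepatocyte and non-parenchymal lists were 33.8% and 47.6%, against 18.4% of all genes. The shares called higher were 35% and 10.5%, against 15.9% of all genes. Among changes of 2-fold or more, 23 hepatocyte genes were higher and 36 lower, while 8 non-parenchymal genes were higher and 48 lower. Hmox1, Mertk and Nr1h3, which stand on lists of both kinds, were kept out of these totals. In whole tissue, fewer cells of a type and less RNA per cell cannot be told apart.

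**Figure D1:**
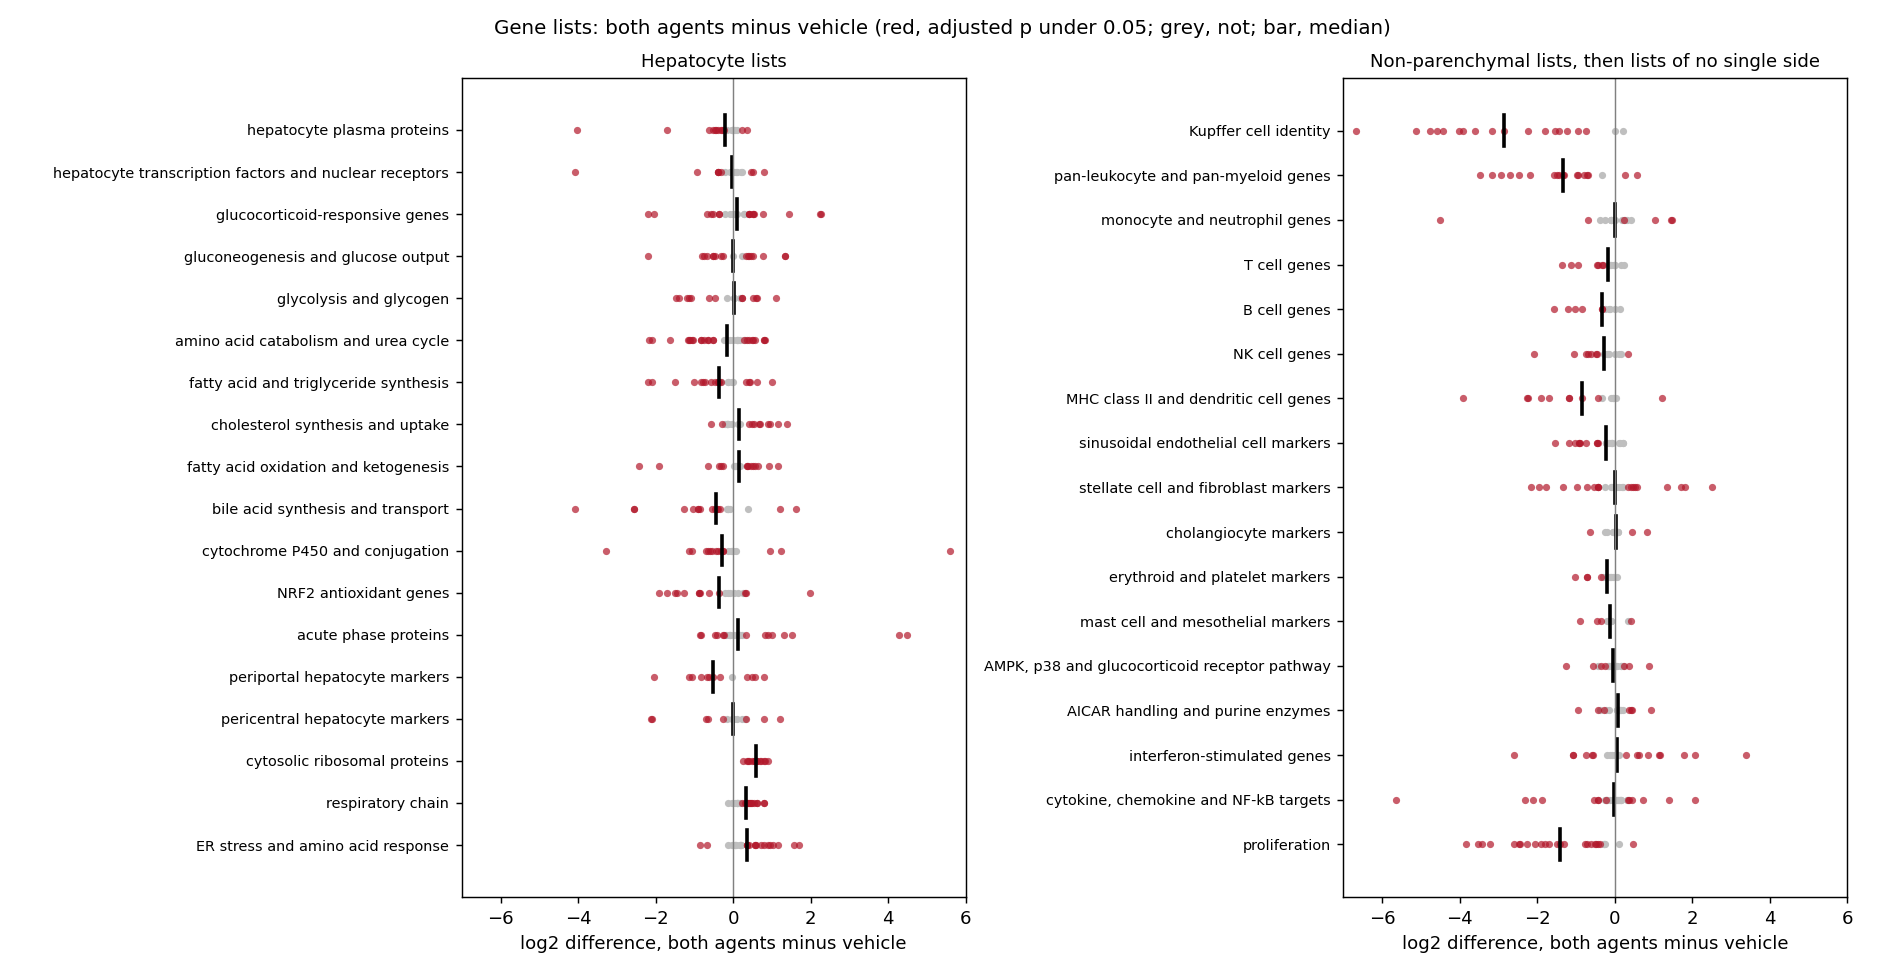
Each point is a gene and gives the difference, both agents minus vehicle, on the log2 scale (x axis), by gene list (y axis), with hepatocyte lists on the left and non-parenchymal lists and lists of no single side on the right. Red points passed the test, grey points did not, and the black bar is the median of the list; the medians run from -2.86 for Kupffer cell genes to 0.59 for ribosomal protein genes.

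The deepest falls of the whole comparison were macrophage genes. Cd5l, a protein that macrophages secrete, read 9.85 and 9.75 on the vehicle arrays and 3.10 and 3.15 on the arrays of both agents, and it fell by 6.68 ± 0.07, to a level 103 times lower (adjusted p = 1.24e-09). Ccl6, a chemokine of myeloid cells, read 10.97 and 10.95 in vehicle and 5.37 and 5.28 after both agents and fell by 5.64 ± 0.08 (49.7 times lower, adjusted p = 3.53e-09). Clec4f, a lectin that marks Kupffer cells in rodents, read 10.50 and 10.66 in vehicle and 5.40 and 5.50 after both agents and fell by 5.13 ± 0.09 (35.1 times lower, adjusted p = 1e-08). The groups lay far apart for all 3 genes. The mean of Cd5l after both agents was below 3.84, the lowest lower quartile of any array, which leaves the size of this fall uncertain. The dim other probe set of Cd5l, at means of 3.46 in vehicle and 2.63 after both agents, was also called lower (-0.83).

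The 15 largest falls also held the 3 chains of complement C1q (C1qa, C1qb and C1qc), Fcna, Aif1, Cd163 and the class II chain RT1-Bb. Outside immune genes they held Stac3 (fell by 5.07 ± 0.07), Nrep (fell by 4.10 ± 0.07), the nuclear receptor Nr0b2, the thyroxine carrier Serpina7 and the cyclin Ccna2. Stac3 is best known as an adaptor of muscle contraction, and it read 12.11 and 12.15 in vehicle and 7.01 and 7.11 after both agents. The 15 largest rises were led by Ces2c, a carboxylesterase, by Lcn2 and A2m, secreted proteins of the acute phase, and by Sqor, the mitochondrial enzyme that oxidises sulfide. Isg15, Fabp4, Rbp7, Pla2g12a, Gucy2c, Slc5a11, Eif4ebp3, Obp1f, Fer1l5, Usp2 and Wfdc21 made up the rest, with rises from 2.75 (Wfdc21) to 3.38 (Isg15 and Fabp4).

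Of the 25 Kupffer cell identity genes on the list, 19 were measured, and 17 were called lower (89.5%, against 18.4% of all genes) and none higher. The other 2, Mertk and Nr1h3, had differences of 0.01 ± 0.07 and 0.22 ± 0.07. Neither is particular to Kupffer cells in liver, and the same holds for some genes called lower, such as Hmox1 and Mrc1. Nr1h3 lay just outside the threshold (adjusted p = 0.0549) and was called higher with the dim probe sets filtered out, a trended and robust prior, centring on the brighter probe sets or the probe sets of a gene averaged (adjusted p = 0.00249 to 0.0347), and with that average Mertk was called higher too (0.19, adjusted p = 0.0356). The median of the list was -2.86, and 15 genes were lower by 2-fold or more. The median level of the list was 7.93 and 7.96 on the vehicle arrays and 5.16 and 5.05 on the arrays of both agents.

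C1q starts the classical complement pathway and comes mainly from macrophages. C1qa read 9.85 and 9.86 in vehicle and 5.15 and 5.01 after both agents and fell by 4.77 ± 0.09 (adjusted p = 1e-08). C1qb read 8.61 and 8.59 in vehicle and 3.65 and 4.41 after both agents and fell by 4.58 ± 0.22 (adjusted p = 1.56e-06). C1qc read 8.66 and 8.58 in vehicle and 4.15 and 5.05 after both agents and fell by 4.02 ± 0.23 (adjusted p = 4.82e-06). All 3 chains were low on both arrays of the combination, and C1qb and C1qc spread more between those 2 arrays than C1qa did.

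Receptors and lysosomal genes of macrophages followed. Csf1r, the receptor for the growth factor that macrophages live on, read 7.60 and 7.63 in vehicle and 4.52 and 4.38 after both agents and fell by 3.16 ± 0.09 (8.97 times lower, adjusted p = 1.07e-07). Cd68, a lysosomal glycoprotein, read 7.81 and 7.96 in vehicle and 5.16 and 4.89 after both agents and fell by 2.86 ± 0.10 (adjusted p = 3.28e-07). Cd163, the scavenger receptor for haemoglobin and haptoglobin, read 7.35 and 7.36 in vehicle and 3.57 and 3.29 after both agents and fell by 3.92 ± 0.10. Adgre1, the F4/80 antigen, read 6.41 and 6.26 in vehicle and 2.84 and 2.60 after both agents and fell by 3.61 ± 0.14. Cd163, Adgre1, Aif1 and Spic had means below 3.84 after both agents, which leaves the sizes of their falls uncertain. Aif1 fell by 4.42 ± 0.10 on the probe set that stood for it, while its other probe set, which read 5.68 in vehicle on average, differed by -0.05 (adjusted p = 0.715).

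The remaining falls of the list were smaller. Axl, a receptor for dying cells, fell by 2.24 ± 0.13, Folr2, a folate receptor, by 1.79 ± 0.11 and Spic, a transcription factor of iron-recycling macrophages, by 1.55 ± 0.16. Hmox1, which degrades haem, fell by 1.44 ± 0.10, and Mrc1, the mannose receptor that sinusoidal endothelium carries too, fell by 1.24 ± 0.07. Slc40a1, the iron exporter, read 10.42 and 10.48 in vehicle and 9.54 and 9.47 after both agents and fell by 0.95 ± 0.07. Il18bp, which binds interleukin 18, fell by 0.74 ± 0.13 (adjusted p = 0.00371).

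The livers of both agents were also far below those of either agent alone for these genes. With the same vehicle and combination arrays entering several of these differences, the values are given side by side. The median of the 19 genes was -0.72 for dexamethasone alone and 0.09 for AICAR alone, each against vehicle. For the combination it was -1.74 against dexamethasone alone, with 16 of 19 genes called lower (11.3% of all genes), and -2.95 against AICAR alone, with 17 called lower (19.4% of all genes). Clec4f read 9.54 and 9.71 after dexamethasone and 10.09 on both arrays after AICAR, and the combination lay below dexamethasone alone by a difference of -4.18 ± 0.09 (adjusted p = 6.45e-08). Cd163 read 6.86 and 7.04 after dexamethasone and 6.98 and 7.02 after AICAR, and the combination differed from dexamethasone alone by -3.52 ± 0.10 (adjusted p = 2.3e-07). Il18bp was the exception among the called genes that the combination did not separate from dexamethasone alone (-0.16 ± 0.13, adjusted p = 0.479).

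**Figure D2:**
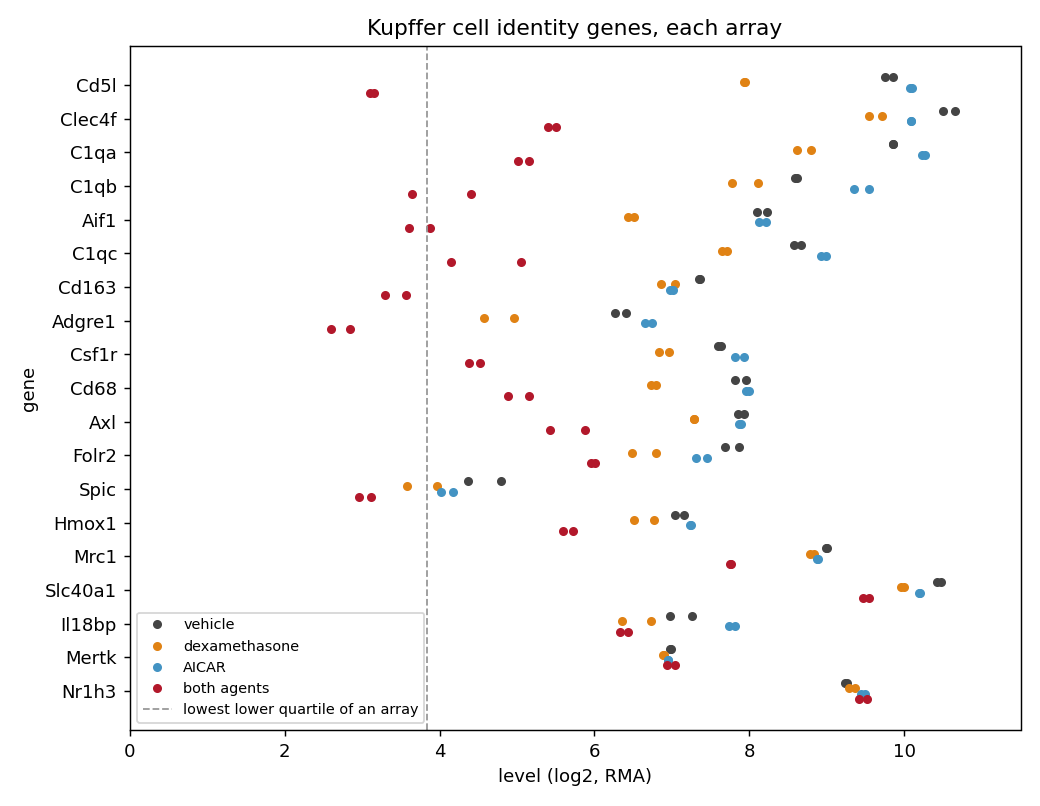
Levels of the 19 measured Kupffer cell identity genes (y axis) on each of the 8 arrays (x axis, log2), coloured by group, with the lowest lower quartile of any array, 3.84, as a dashed line. The points of both agents lie to the left of all other groups from Cd5l (3.10 and 3.15) down to Slc40a1 (9.54 and 9.47), and the groups meet at Mertk.

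Promoters are shown for 5 genes that the results turn on, from 250 bases before to 50 after the annotated start, as RefSeq gives them in the GRCr8 build. They were scanned on both strands, and the capitals mark the matches as they read on the strand of the gene. Cd5l and C1qb stand for the macrophage genes, searched for GAGGAA, a core of the sites that ETS factors such as PU.1 bind. Oas1a (higher) and Gbp2 (lower) stand for the interferon-stimulated genes, searched for a core of the interferon element (GAAA, any 2 letters, GAAA), and Ces2c stands for the largest rise, searched for ACANNNTGT, a core of the glucocorticoid element.
Cd5l (chr2:175088665-175088964, plus strand): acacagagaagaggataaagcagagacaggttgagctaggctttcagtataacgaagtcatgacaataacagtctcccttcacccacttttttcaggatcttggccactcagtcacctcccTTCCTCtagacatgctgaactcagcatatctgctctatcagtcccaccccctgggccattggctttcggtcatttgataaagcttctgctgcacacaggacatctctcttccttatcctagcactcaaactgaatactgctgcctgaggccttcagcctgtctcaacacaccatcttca
C1qb (chr5:154407778-154408077, minus strand): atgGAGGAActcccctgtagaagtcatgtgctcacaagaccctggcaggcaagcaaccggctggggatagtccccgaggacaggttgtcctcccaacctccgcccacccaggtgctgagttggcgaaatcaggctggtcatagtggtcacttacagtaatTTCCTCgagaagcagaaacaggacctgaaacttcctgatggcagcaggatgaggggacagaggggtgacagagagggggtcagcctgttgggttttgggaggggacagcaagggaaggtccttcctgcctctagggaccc
Oas1a (chr12:41330216-41330515, plus strand): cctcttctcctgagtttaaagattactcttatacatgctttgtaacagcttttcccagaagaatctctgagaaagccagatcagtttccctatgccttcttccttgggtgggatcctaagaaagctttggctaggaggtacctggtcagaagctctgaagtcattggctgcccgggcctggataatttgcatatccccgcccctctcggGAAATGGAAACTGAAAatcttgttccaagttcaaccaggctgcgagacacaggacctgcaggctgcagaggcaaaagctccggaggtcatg
Gbp2 (chr2:234005477-234005776, plus strand): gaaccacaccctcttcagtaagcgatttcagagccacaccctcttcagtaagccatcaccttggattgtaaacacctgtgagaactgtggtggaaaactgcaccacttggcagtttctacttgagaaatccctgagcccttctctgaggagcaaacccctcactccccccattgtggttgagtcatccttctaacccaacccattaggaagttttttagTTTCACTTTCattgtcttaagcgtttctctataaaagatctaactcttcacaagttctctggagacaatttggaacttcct
Ces2c (chr1:270376951-270377250, plus strand): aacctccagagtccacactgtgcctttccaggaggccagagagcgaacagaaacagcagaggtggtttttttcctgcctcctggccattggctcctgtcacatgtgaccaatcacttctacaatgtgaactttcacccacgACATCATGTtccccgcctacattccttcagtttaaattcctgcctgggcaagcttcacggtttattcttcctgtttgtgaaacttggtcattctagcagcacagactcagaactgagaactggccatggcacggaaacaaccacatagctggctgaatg
GAGGAA began 129 bases before the start of Cd5l and 247 and 90 bases before that of C1qb. Of the 16 Kupffer cell genes with a promoter in the table, 7 held it (Adgre1, Axl, C1qb, Cd5l, Cd68, Csf1r and Mrc1), beside 27.5% of all 24206 promoters. The interferon element core began 41 and 35 bases before the start of Oas1a, as overlapping matches, and 31 bases before that of Gbp2. It was in 9 of 15 promoters of interferon-stimulated genes, beside 3.74% of all promoters, and these belonged to genes that were higher, lower or not called. ACANNNTGT began 109 bases before the start of Ces2c and was in 2 of 20 promoters of the glucocorticoid-responsive list, beside 6.5% of all promoters. The promoter of C1qb, a gene called lower, also held 1 match to ACANNNTGT, which is not marked above. A match is a stretch of letters and not a measured binding site.

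Genes shared by all leukocytes or all myeloid cells were lower too. Of 19 measured genes, 16 were called lower (84.2%, against 18.4% of all genes) and 2 higher (10.5%, against 15.9%), with a median of -1.34. Ptprc, the leukocyte common antigen CD45, read 6.91 and 6.80 in vehicle and 4.29 and 4.47 after both agents and fell by 2.48 ± 0.10 (adjusted p = 5.62e-07). Its other probe set was lower by less (-0.98). Cybb, a subunit of the phagocyte oxidase, read 7.97 and 7.87 in vehicle and 4.27 and 4.60 after both agents and fell by 3.49 ± 0.11. The other probe set of Cybb was lower by less (-0.95). Ctss, a lysosomal protease of antigen-presenting cells, fell by 3.17 ± 0.09, Fcer1g, a signalling chain of Fc receptors, by 2.93 ± 0.10 and Cd53, a tetraspanin of leukocytes, by 2.71 ± 0.08. The 2 genes called higher were Lyz2 and Ncf1. Lyz2, lysozyme of myeloid cells, read 10.36 and 10.37 in vehicle and 10.96 and 10.93 after both agents and rose by 0.58 ± 0.07 (adjusted p = 0.000455). Ncf1 rose by 0.26 ± 0.08 (adjusted p = 0.0475), a call that was lost when any of the 4 arrays was left out, at 0.19 to 0.34.

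Most genes of monocytes and neutrophils did not pass the test. Of 18 measured, 4 were called higher (22.2%, against 15.9% of all genes) and 2 lower (11.1%, against 18.4%), and the median was 0.00. With the probe sets of a gene averaged, 7 were higher and 4 lower. S100a8, a calcium-binding protein of neutrophils and monocytes, read 5.29 and 5.57 in vehicle and 6.88 and 6.87 after both agents and rose by 1.45 ± 0.17 (adjusted p = 0.000333). Its partner S100a9 read 6.84 on both vehicle arrays and 7.98 and 7.81 after both agents and rose by 1.05 ± 0.09 (adjusted p = 3.92e-05). Il1r2, the decoy receptor for interleukin 1, read 3.23 and 2.90 in vehicle and 4.54 and 4.56 after both agents and rose by 1.48 ± 0.11, from a vehicle mean below 3.84. In all 3 genes both arrays of the combination lay above both vehicle arrays. Dexamethasone alone differed from vehicle by -1.09 for S100a8 and -1.14 for S100a9, and AICAR alone by 0.74 and 0.62. The combination was above dexamethasone alone by 2.54 ± 0.17 for S100a8 (adjusted p = 2.46e-05) and 2.18 ± 0.09 for S100a9 (adjusted p = 1.04e-06). The deep fall on this list was Fcna (fell by 4.51 ± 0.14). Fcna was matched through the older symbol Fcn1, so its place among monocyte and neutrophil genes is uncertain. The fourth rise was Csf3r (0.25 ± 0.08), a dim gene whose call was lost without any of the 4 arrays, at 0.19 to 0.32.

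Lymphocyte genes were lower in part. Among 16 T cell genes 7 were called lower (43.8%, against 18.4% of all genes) and none higher, among 11 B cell genes 6 were lower (54.5%) and none higher, and among 15 NK cell genes 7 were lower (46.7%) and 1 higher. The medians were -0.17, -0.33 (-0.21 without vehicle replicate 1) and -0.28, and with dim probe sets filtered out they were -0.30 for T cell and -0.46 for NK cell genes. Gzma, a granzyme of cytotoxic cells, read 6.37 and 6.08 in vehicle and 4.22 and 4.05 after both agents and fell by 2.09 ± 0.16 (4.24 times lower, adjusted p = 2.89e-05). Ms4a1, the B cell antigen CD20, read 5.92 and 5.91 in vehicle and 4.43 and 4.24 after both agents and fell by 1.58 ± 0.13 (adjusted p = 3.6e-05). Cd8a, the coreceptor of cytotoxic T cells, read 5.46 and 5.39 in vehicle and 4.07 and 4.06 after both agents and fell by 1.36 ± 0.23, with 1 of its other probe sets not called (-0.32). Cd3e, a chain of the T cell receptor complex, fell by 0.43 ± 0.08, and its other probe set was not called (-0.27). Dexamethasone alone gave medians of -0.20, -0.24 and -0.28 against vehicle for T, B and NK cell genes, and AICAR alone -0.04, 0.02 and 0.17. Against dexamethasone alone the combination was called lower in 2, 0 and 2 of these genes and higher in 0, 1 and 0. Over all genes the shares called against dexamethasone alone were 11.3% lower and 14% higher. Many of the lymphocyte genes were dim, with 5 of 15 NK cell genes and 3 of 11 B cell genes at means below 3.84 after both agents. With dim probe sets filtered out, a trended and robust prior or cyclic loess, 1 T cell gene was called higher. The same held with centring on the brighter probe sets or the probe sets of a gene averaged. Without replicate 1 of the combination, 4 T cell genes were called lower, 1 T cell gene was called higher without vehicle replicate 2, and no NK cell gene was called higher without either vehicle array or replicate 1 of the combination.

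Genes of MHC class II, which presents peptides to helper T cells, were lower for the most part. On the list of class II and dendritic cell genes 15 were measured, with a median of -0.84 (-0.67 without vehicle replicate 1). Of these, 9 were called lower (60%, against 18.4% of all genes), 1 higher (6.67%, against 15.9%) and 5 not called. RT1-Da read 9.66 and 9.72 in vehicle and 7.45 and 7.38 after both agents and fell by 2.27 ± 0.09 (adjusted p = 6.49e-07). Cd74, the invariant chain that guides class II molecules, read 9.46 and 9.49 in vehicle and 7.29 and 7.17 after both agents and fell by 2.24 ± 0.07 (adjusted p = 2.4e-07). RT1-Bb read 6.95 and 6.85 in vehicle and 3.20 and 2.78 after both agents and fell by 3.91 ± 0.13, to a mean below 3.84, while its other probe set, at means of 5.99 in vehicle and 5.33 after both agents, was lower by a difference of -0.66. RT1-Ba fell by 1.91 ± 0.10, with 1 of its other probe sets lower (-0.60) and 2 not called (-0.22 and -0.06). RT1-Da, Cd74 and RT1-Bb lay lower on both arrays of the combination. RT1-DMa, part of the editor that loads peptides, went the other way, from 6.22 and 6.14 in vehicle to 7.47 and 7.32, and rose by 1.22 ± 0.09 (adjusted p = 1.8e-05). AICAR alone differed from vehicle by 1.21 for RT1-Da and 0.99 for Cd74, and dexamethasone alone by -1.59 and -1.60. The combination lay below dexamethasone alone by a difference of -0.68 ± 0.09 for RT1-Da (adjusted p = 0.00116) and of -0.64 ± 0.07 for Cd74 (adjusted p = 0.000473).

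**Figure D3:**
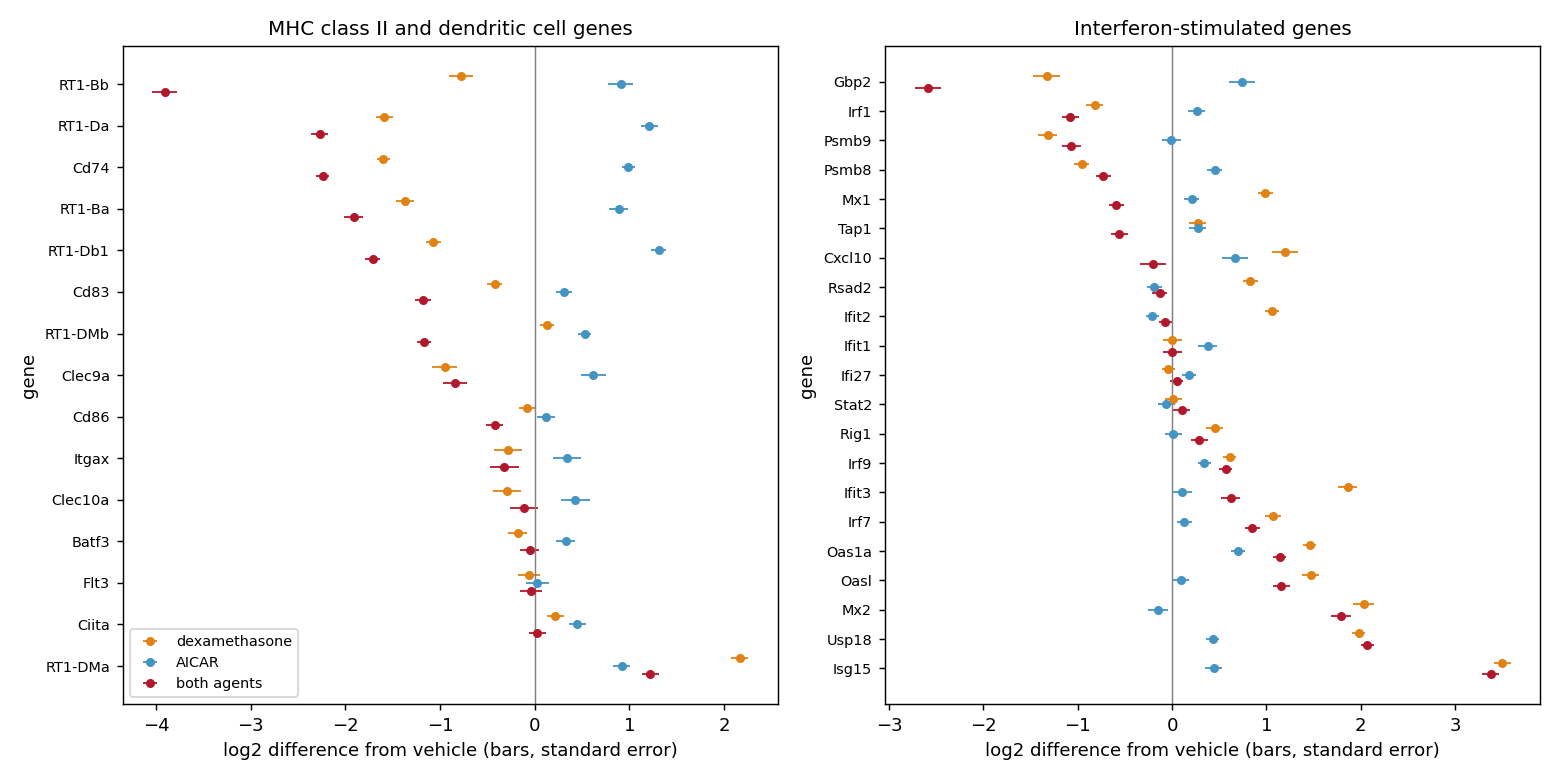
Differences from vehicle on the log2 scale (x axis, points, with bars of 1 standard error of the fit) for dexamethasone alone, AICAR alone and both agents, for MHC class II and dendritic cell genes on the left and interferon-stimulated genes on the right. After both agents RT1-Bb lies at -3.91 and RT1-DMa at 1.22, and the interferon-stimulated genes run from -2.59 (Gbp2) to 3.38 (Isg15).

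The markers of sinusoidal endothelium, the fenestrated lining of the liver's capillaries, were lower or not called. Of 21 measured, 10 were called lower (47.6%, against 18.4% of all genes) and none higher (against 15.9% of all genes). The median was -0.23 (-0.37 without vehicle replicate 2). With a trended and robust prior, centring on the brighter probe sets or the probe sets of a gene averaged, 1 was higher. Bmp2, a signal from these cells that sets hepatic iron control, read 8.47 and 8.48 in vehicle and 6.87 and 6.98 after both agents and fell by 1.55 ± 0.07 (adjusted p = 1.79e-06). Emcn, a surface sialomucin, fell by 1.17 ± 0.09 and the scavenger receptor Stab1 by 1.02 ± 0.10. Stab2, the scavenger receptor that clears hyaluronan, read 8.45 and 8.58 in vehicle and 7.57 and 7.60 after both agents and fell by 0.93 ± 0.08. Both arrays of the combination were lower for each of these genes. Stab2 read 7.39 and 7.56 after dexamethasone alone, and the combination was not called different from it (0.11 ± 0.08, adjusted p = 0.432). Kdr, a receptor for VEGF, fell by 0.93 ± 0.07, while its dim other probe set was not called (-0.08).

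Stellate cell and fibroblast markers moved in both directions. Of 26 measured, 9 were called higher (34.6%, against 15.9% of all genes) and 10 lower (38.5%, against 18.4%), with a median of -0.01. Lrat, which esterifies retinol for storage in stellate cells, read 8.12 and 8.02 in vehicle and 5.99 and 5.84 after both agents and fell by 2.15 ± 0.08 (4.45 times lower, adjusted p = 4.18e-07). Lox, which cross-links collagen, read 11.07 and 10.99 in vehicle and 9.04 and 9.12 after both agents and fell by 1.95 ± 0.08. The matrix genes Dpt and Col14a1 fell by 1.77 ± 0.08 and 1.33 ± 0.07. Against these, Dcn, a proteoglycan that binds collagen, read 6.09 and 5.98 in vehicle and 8.49 and 8.59 after both agents and rose by 2.50 ± 0.08 (5.68-fold, adjusted p = 2.62e-07). Timp1, an inhibitor of matrix proteases, read 7.14 and 7.22 in vehicle and 8.93 and 8.85 after both agents and rose by 1.71 ± 0.08. Rgs5, a regulator of G-protein signals in pericytes, rose by 1.80 ± 0.14, and Lum, another small proteoglycan, by 1.35 ± 0.08. Col1a1, a chain of collagen I, did not pass the test against vehicle (0.06 ± 0.08, adjusted p = 0.661), and AICAR alone read higher, at 7.35 and 7.5 against 6.11 and 6.13 for the combination.

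For some of these genes a single agent read close to the combination, and for others neither did. Timp1 differed from vehicle by 2.05 after AICAR alone and by 0.00 after dexamethasone alone. Lox differed by -2.02 after dexamethasone and -1.74 after AICAR, and the combination was not called different from either. For Lrat the single agents gave -0.83 and -0.26, and the combination lay below dexamethasone alone by a difference of -1.32 ± 0.08 (adjusted p = 1.43e-05).

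**Figure D4:**
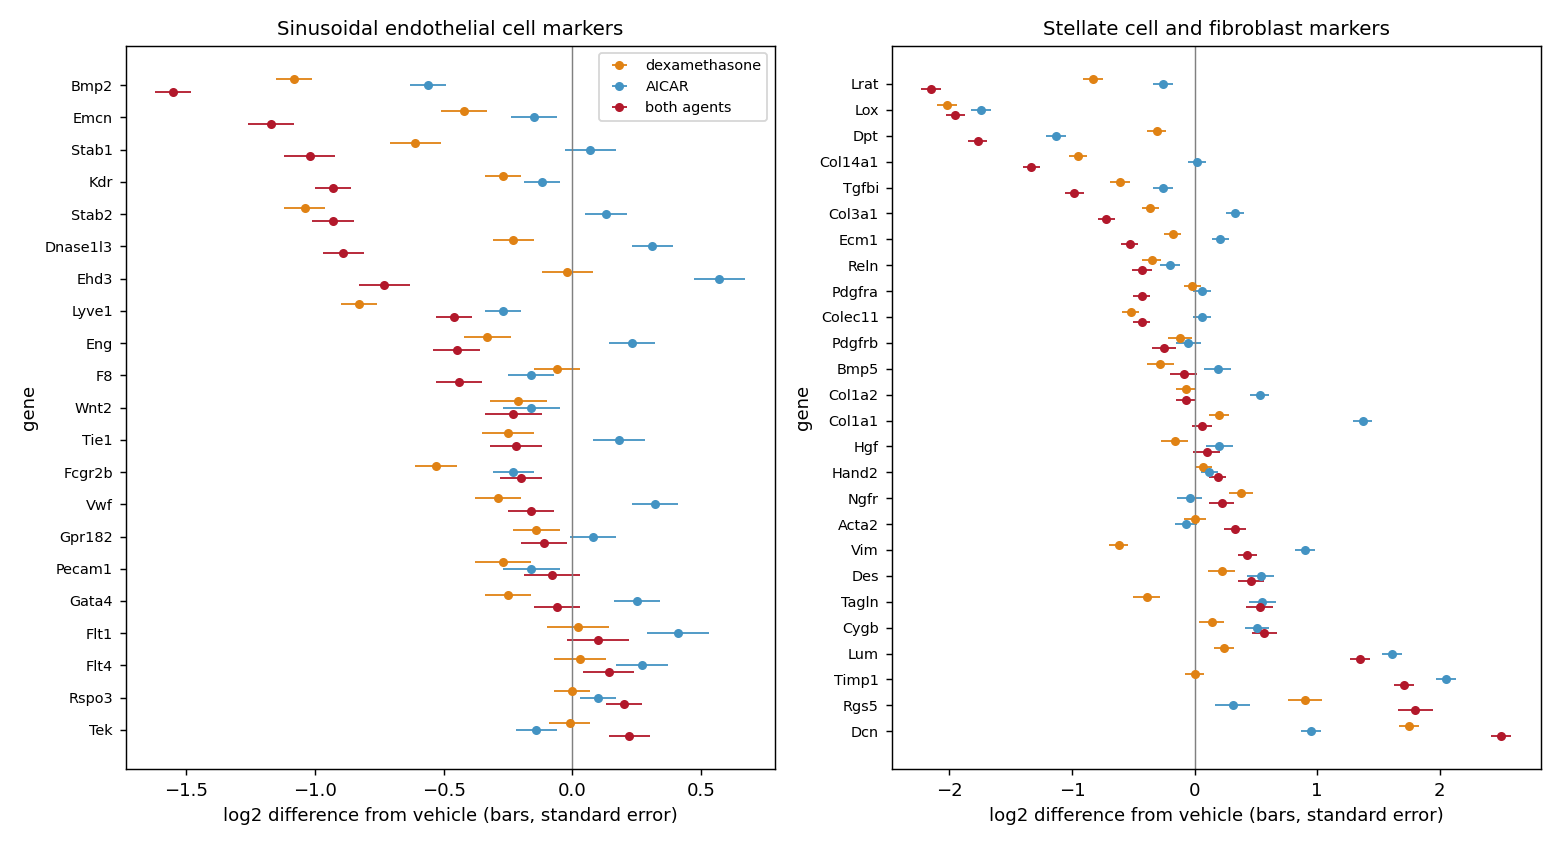
Differences from vehicle on the log2 scale (x axis, points, with bars of 1 standard error of the fit) for dexamethasone alone, AICAR alone and both agents, for sinusoidal endothelial markers on the left and stellate cell and fibroblast markers on the right. Endothelial markers after both agents run from -1.55 (Bmp2) to 0.22, and stellate markers from -2.15 (Lrat) to 2.50 (Dcn).

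The remaining cell types gave few calls. Of 12 cholangiocyte markers 2 were called higher (16.7%, against 15.9% of all genes) and 1 lower (8.33%, against 18.4%). Of 12 erythroid and platelet markers 4 were lower (33.3%) and none higher, and of 10 mast cell and mesothelial markers 1 was higher (10%) and 3 were lower (30%). Without vehicle replicate 1 or replicate 2 of the combination 1 cholangiocyte marker was higher, and without either vehicle array or replicate 1 of the combination no mast cell or mesothelial marker was. Spp1, the secreted protein osteopontin that bile duct cells make, rose by 0.82. Alas2, the haem-synthesis enzyme of red cell precursors, read 9.08 and 9.05 in vehicle and 8.11 and 7.97 after both agents and fell by 1.03 ± 0.08.

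Glucocorticoid-responsive genes, counted with the hepatocyte lists, moved both ways. Of 25 measured glucocorticoid-responsive genes, 10 were called higher (40%, against 15.9% of all genes) and 7 lower (28%, against 18.4%). The median was 0.11, beside 0.82 for dexamethasone alone and -0.03 for AICAR alone. Fkbp5, a chaperone that holds the receptor in its low-affinity form, read 6.04 and 6.31 in vehicle and 8.40 and 8.45 after both agents and rose by 2.25 ± 0.10 (4.75-fold, adjusted p = 8.31e-07). Tsc22d3, the anti-inflammatory protein GILZ, read 8.37 and 8.09 in vehicle and 9.69 and 9.64 after both agents and rose by 1.44 ± 0.10 (adjusted p = 1.35e-05). Mt2A, a metallothionein, read 9.42 and 9.39 in vehicle and 11.70 and 11.64 after both agents and rose by 2.27 ± 0.07. Both arrays of the combination lay above vehicle for all 3. The other rises were smaller: Per1, a clock gene, rose by 0.76 ± 0.12, Igfbp1, which binds insulin-like growth factors, by 0.55 ± 0.07, and Gadd45b, Ppargc1a, Dusp1, Tdo2 and Cdkn1a by 0.40 to 0.52. Gadd45b lost its call without either vehicle array or without replicate 1 of the combination (0.34 to 0.56).

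Against dexamethasone alone, 17 of the 25 genes were called lower in the combination (11.3% of all genes) and 2 higher (14% of all genes), with a median of -0.71. Fkbp5 was 1 of those higher, at 7.55 and 7.61 after dexamethasone and a difference of 0.84 ± 0.10 (adjusted p = 0.000424). Lpin1, a phosphatidate phosphatase, read 7.94 and 7.98 in vehicle, 10.34 and 10.44 after dexamethasone and 7.69 and 7.48 after both agents. The combination differed from dexamethasone alone by -2.80 ± 0.09 (adjusted p = 3.34e-07) and from vehicle by -0.37 ± 0.09 (adjusted p = 0.0132). The call against vehicle was lost without vehicle replicate 2 or without replicate 2 of the combination (-0.36 and -0.27), and the other probe set was not called (-0.19).

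The 2 deepest falls on the list were in kinase genes. Pdk4, which shuts pyruvate dehydrogenase, read 9.31 and 9.21 in vehicle and 7.10 and 7.02 after both agents and fell by 2.20 ± 0.08 (4.61 times lower, adjusted p = 2.77e-07). Its other probe set was lower by less (-1.34). Sgk1, a kinase of salt and insulin signalling, read 10.54 and 10.51 in vehicle and 8.46 and 8.52 after both agents and fell by 2.04 ± 0.07. Pdk4 and Sgk1 also lay below vehicle after dexamethasone alone, by differences of -1.15 and -1.49. Tat, the tyrosine aminotransferase, read 10.38 and 10.39 in vehicle, 11.20 and 11.21 after dexamethasone and 10.49 on both arrays after both agents, and it did not pass the test against vehicle (0.11 ± 0.07, adjusted p = 0.3). Cebpd, Ddit4, Errfi1, Fam107a, Klf9, Mertk and Mt1 did not pass it either, with differences from -0.22 (Mt1) to 0.27 (Cebpd and Ddit4).

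The receptor itself was lower. Nr3c1, the glucocorticoid receptor gene, read 10.38 and 10.27 in vehicle and 9.08 and 9.05 after both agents and fell by 1.26 ± 0.09 (2.40 times lower, adjusted p = 1.67e-05). It read 10.12 and 9.92 after dexamethasone and 9.84 and 9.91 after AICAR, and the combination lay below each by a difference of -0.95 ± 0.09 (adjusted p = 0.000146) and -0.81 ± 0.09 (adjusted p = 0.000191). Its other probe set was also called lower (-0.48). Hsd11b1, the enzyme that regenerates active glucocorticoid, read 13.02 and 13.03 in vehicle and 12.94 and 12.93 after both agents, a difference of -0.09 ± 0.07 (adjusted p = 0.394).

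Of the 22 measured genes of the AMPK, p38 and glucocorticoid receptor pathway, 3 were called higher and 4 lower, and the median was -0.03. These shares, 13.6% and 18.2%, were near those of all genes, 15.9% and 18.4%. The catalytic subunits of AMPK, Prkaa1 and Prkaa2, did not pass the test (0.03 ± 0.08 and 0.06 ± 0.07). Prkab1, a scaffold subunit of AMPK, read 9.20 and 9.22 in vehicle and 8.69 and 8.63 after both agents and fell by 0.55 ± 0.07 (adjusted p = 0.000596). Map2k6, a kinase that activates p38, read 5.82 and 5.73 in vehicle and 6.66 and 6.67 after both agents and rose by 0.89 ± 0.08 (adjusted p = 8.95e-05). Mapk14, which encodes p38 alpha, fell by 0.26 ± 0.08 (adjusted p = 0.0354), and the call was lost without vehicle replicate 2 or either array of the combination (-0.21 to -0.29). Phosphorylation and protein were not measured. Without either array of the combination, 2 genes of this list were called lower, and with a trended and robust prior 7 were. Of the 18 genes of AICAR handling and purine enzymes, 4 were higher (7 with that prior) and 3 lower (1 without vehicle replicate 1, and 5 with dim probe sets filtered out or the probe sets of a gene averaged). In the main fit 22.2% of this purine list was higher and 16.7% lower, against 15.9% and 18.4% of all genes. Uox, urate oxidase, rose by 0.93 ± 0.07, and Nt5e, which dephosphorylates AMP outside the cell, fell by 0.94 ± 0.07.

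Genes of glucose production split. Of 19 measured, 8 were called higher (42.1%, against 15.9% of all genes) and 9 lower (47.4%, against 18.4%), with a median of 0.00. Pck1, which commits carbon to gluconeogenesis, read 12.98 and 12.95 in vehicle and 12.32 and 12.26 after both agents and fell by 0.68 ± 0.07 (adjusted p = 0.000147). Fbp1, the bisphosphatase of the pathway, read 12.72 and 12.77 in vehicle and 11.93 and 11.95 after both agents and fell by 0.80 ± 0.07. Both genes lay above vehicle after dexamethasone alone, by 0.45 and 0.49, and the combination was below dexamethasone alone by differences of -1.13 ± 0.07 and -1.30 ± 0.07 (adjusted p = 1.52e-05 and 8.23e-06). The aminotransferases Got1 and Gpt went the other way. Gpt read 9.41 and 9.39 in vehicle and 10.73 and 10.72 after both agents and rose by 1.33 ± 0.07 (2.51-fold, adjusted p = 4.15e-06), and Got1 rose by 1.34 ± 0.07. Got1 after both agents was not called different from dexamethasone alone (0.02 ± 0.07, adjusted p = 0.897).

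On the side of glycolysis and glycogen, 6 of 17 genes were called higher and 7 lower. These shares, 35.3% and 41.2%, stand beside 15.9% and 18.4% of all genes. The median was 0.03 (-0.17 without vehicle replicate 2). Pklr, the liver pyruvate kinase, read 9.10 and 9.11 in vehicle and 7.61 and 7.67 after both agents and fell by 1.47 ± 0.07 (2.76 times lower, adjusted p = 2.37e-06). Ugp2 and Gbe1, which make the glycogen precursor and its branches, fell by 1.39 ± 0.07 and 1.20 ± 0.07. Pygl, which breaks glycogen down, fell by 1.08 ± 0.07, and Gckr, the regulator of glucokinase, by 1.14 ± 0.08. Each of Pklr, Gbe1, Gckr and Pygl lay within 0.29 of vehicle after either single agent. The combination differed from dexamethasone alone by -1.52 ± 0.07 for Pklr (adjusted p = 3.87e-06). Pfkfb1, which sets fructose 2,6-bisphosphate, rose by 1.11 ± 0.09.

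Amino acid breakdown was lower more often than higher. Of 34 measured genes, 9 were called higher (26.5%, against 15.9% of all genes) and 15 lower (44.1%, against 18.4%). The median was -0.16 (-0.03 with the probe sets of a gene averaged). Oat, ornithine aminotransferase, read 12.21 and 12.25 in vehicle and 10.12 and 10.19 after both agents and fell by 2.08 ± 0.07 (4.21 times lower, adjusted p = 2.57e-07). Kmo, of the kynurenine pathway, fell by 2.17 ± 0.08 and Cth, which makes cysteine, by 1.62 ± 0.07. Asl, of the urea cycle, and Hgd, of tyrosine breakdown, rose by 0.81 ± 0.08 and 0.82 ± 0.10. Sds, serine dehydratase, read 7.34 and 7.41 in vehicle, 9.52 and 9.55 after dexamethasone, 6.10 and 6.15 after AICAR and 6.91 and 6.83 after both agents. It fell by 0.51 ± 0.07 against vehicle (adjusted p = 0.000992) and was below dexamethasone alone by a difference of -2.66 ± 0.07 (adjusted p = 1.99e-07).

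Of 23 measured genes of fatty acid and triglyceride synthesis, 13 were lower (56.5%, against 18.4% of all genes) and 5 higher (21.7%, against 15.9%). The median was -0.37. Without replicate 1 of the combination, 3 were higher. Scd, the delta-9 desaturase, read 11.73 and 11.72 in vehicle and 9.65 and 9.62 after both agents and fell by 2.09 ± 0.07 (4.26 times lower, adjusted p = 2.4e-07). Fads1, the delta-5 desaturase, read 12.20 and 12.18 in vehicle and 10.01 and 9.97 after both agents and fell by 2.20 ± 0.07. Me1, which supplies NADPH, fell by 1.50 ± 0.07, and Elovl6, a fatty acid elongase, rose by 1.01 ± 0.11. Scd read 11.60 on both arrays after dexamethasone and 11.82 and 11.88 after AICAR, and the combination lay below each, by differences of -1.96 ± 0.07 (adjusted p = 6.32e-07) and -2.21 ± 0.07 (adjusted p = 1.67e-07). For Fads1 dexamethasone alone read 10.37 and 10.39, a difference of -1.81 from vehicle. The combination was called lower still, by a difference of -0.39 ± 0.07 from dexamethasone alone (adjusted p = 0.00451).

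In fatty acid oxidation and ketogenesis 9 of 20 genes were called higher and 6 lower. These shares, 45% and 30%, stand beside 15.9% and 18.4% of all genes. The median was 0.15 (0.28 with the probe sets of a gene averaged). Ehhadh, of peroxisomal oxidation, read 10.66 and 10.69 in vehicle and 8.36 and 8.14 after both agents and fell by 2.43 ± 0.10 (5.39 times lower, adjusted p = 5.04e-07). Bdh1, of ketone synthesis, fell by 1.91 ± 0.09. Eci1, a mitochondrial isomerase, rose by 0.93 ± 0.09, although its dim other probe set was not called (0.09).

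Of 20 measured genes of cholesterol synthesis and uptake, 9 were called higher (45%, against 15.9% of all genes) and 2 lower (10%, against 18.4%). The median was 0.15. The lower calls numbered 1 without any 1 of the 4 arrays, 5 with cyclic loess or the probe sets of a gene averaged and 6 with a trended and robust prior. Dexamethasone alone gave a median of -0.60 and AICAR alone 0.49. Sqle, squalene epoxidase, read 8.00 and 7.94 in vehicle and 9.12 and 9.15 after both agents and rose by 1.17 ± 0.07 (2.24-fold, adjusted p = 6.9e-06). Idi1, an isomerase of the isoprenoid steps, read 10.55 and 10.48 in vehicle and 11.46 and 11.47 after both agents and rose by 0.96 ± 0.08. Hsd17b7, a late enzyme of the pathway, read 8.49 and 8.48 in vehicle and 9.86 and 9.87 after both agents and rose by 1.38 ± 0.07. For Sqle and Idi1 dexamethasone alone lay below vehicle (-0.71 and -1.08) and AICAR alone above it (0.71 and 0.49). The combination read above AICAR alone too for Sqle and Idi1, by 0.46 ± 0.07 (adjusted p = 0.00134) and 0.47 ± 0.08 (adjusted p = 0.00172). The list as a whole went the other way against AICAR alone, with a median of -0.35. Of the 20 genes, 4 were called higher and 12 lower (19.4% of all genes). Higher calls against AICAR alone numbered 2660 of all 14217 genes. Against dexamethasone alone 17 were higher (14% of all genes) and 1 lower (11.3% of all genes), with a median of 0.76. Ebp, another enzyme of the pathway, fell by 0.56 ± 0.09.

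Bile acid genes were mostly lower. Of 20 measured, 2 were called higher (10%, against 15.9% of all genes) and 13 lower (65%, against 18.4%), with a median of -0.44. The deepest fall on the list was that of Nr0b2, the nuclear receptor SHP that represses bile acid synthesis genes. Nr0b2 read 8.84 and 8.95 in vehicle and 4.91 and 4.75 after both agents and fell by 4.07 ± 0.09 (16.8 times lower, adjusted p = 2.45e-08). It read 9.15 and 9.10 after dexamethasone and 8.73 and 8.64 after AICAR, so the combination stood apart from all 3 other groups, by differences of -4.30 ± 0.09 from dexamethasone (adjusted p = 3.71e-08) and -3.86 ± 0.09 from AICAR (adjusted p = 3.87e-08). The 2 genes called higher were the synthesis enzymes Cyp7a1 and Cyp8b1. Cyp7a1, which catalyses the rate-limiting step, read 9.43 and 9.51 in vehicle and 10.66 and 10.71 after both agents and rose by 1.22 ± 0.07 (adjusted p = 5.29e-06). Cyp8b1, which directs synthesis to cholic acid, read 9.88 and 9.95 in vehicle and 11.55 and 11.49 after both agents and rose by 1.61 ± 0.08 (adjusted p = 1.51e-06). After AICAR alone Cyp7a1 was higher still, at 11.57 and 11.58, and the combination lay below it by a difference of -0.89 ± 0.07 (adjusted p = 3.21e-05). Dexamethasone alone differed from vehicle by 0.82 for Cyp7a1 and -0.03 for Cyp8b1, and AICAR alone by 1.11 for Cyp8b1. A link between Nr0b2 and these enzymes was not tested.

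Several transporters were among the genes called lower. Slco1a4, an uptake carrier, read 12.20 and 12.24 in vehicle and 9.62 and 9.71 after both agents and fell by 2.56 ± 0.07. Abcg5, a sterol exporter that pairs with Abcg8, read 8.40 and 8.27 in vehicle and 5.99 and 5.56 after both agents and fell by 2.56 ± 0.13, and Abcg8 fell by 1.26 ± 0.18. Abcc2, a canalicular exporter of conjugates, fell by 1.03 ± 0.08. Abcb11, the bile salt export pump, and Slc10a1, the main bile acid importer, were picked after their values were seen, and they fell by 0.91 ± 0.07 and 0.86 ± 0.07. Abcg5 and Abcg8 were also low after dexamethasone alone (-2.59 and -1.25), and the combination was not called different from it (0.03 ± 0.13 and -0.01 ± 0.18). Abcg8 had means below 3.84 in both of these groups, which leaves the size of its fall and that comparison uncertain.

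**Figure D5:**
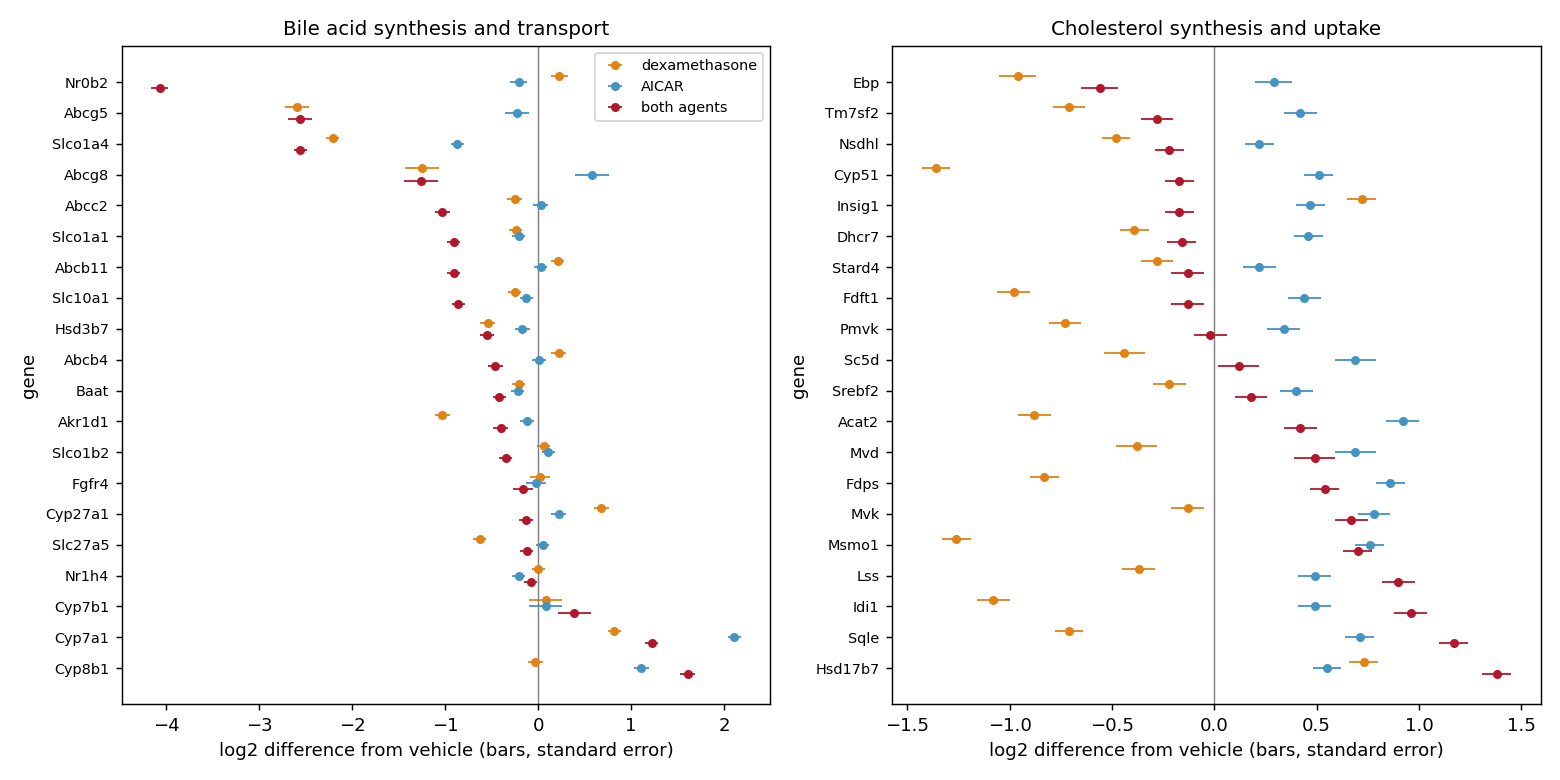
Differences from vehicle on the log2 scale (x axis, points, with bars of 1 standard error of the fit) for dexamethasone alone, AICAR alone and both agents, for bile acid genes on the left and cholesterol synthesis genes on the right. Nr0b2 after both agents lies at -4.07 while the single agents lie at 0.23 and -0.21, and cholesterol genes run from -0.56 (Ebp) to 1.38 (Hsd17b7) after both agents.

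Genes of drug and toxin handling were mostly lower, around single large rises. Of 20 cytochrome P450 and conjugation genes, 3 were called higher (15%, against 15.9% of all genes) and 12 lower (60%, against 18.4%). The median was -0.29. Ces2c read 7.17 and 6.70 in vehicle and 12.49 and 12.59 after both agents and rose by 5.60 ± 0.14 (48.7-fold, adjusted p = 5.95e-08), and dexamethasone alone read 13.07 and 13.00. Por, the electron donor of P450 enzymes, rose by 1.23 ± 0.10, and Sult1a1, a sulfotransferase, by 0.96 ± 0.07. Inmt, a methyltransferase of amines, read 9.59 and 9.52 in vehicle and 6.40 and 6.15 after both agents and fell by 3.28 ± 0.13 (9.72 times lower, adjusted p = 5.62e-07). Of 19 NRF2 antioxidant genes, 3 were higher and 10 lower, with a median of -0.36, and 1 was higher without vehicle replicate 1 or replicate 1 of the combination. Nqo1, a quinone reductase, read 7.29 and 7.26 in vehicle and 9.29 and 9.22 after both agents and rose by 1.98 ± 0.07 (3.94-fold), and it read 9.34 on both arrays after AICAR alone. Osgin1, another oxidative stress gene, fell by 1.91 ± 0.07 and the epoxide hydrolase Ephx1 by 1.27 ± 0.07. The shares of the NRF2 list, 15.8% higher and 52.6% lower, stand beside 15.9% and 18.4% of all genes.

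Acute phase genes gave 8 higher (13 with a trended and robust prior) and 6 lower of 24, with a median of 0.13. These shares in the main fit, 33.3% and 25%, stand beside 15.9% and 18.4% of all genes. Lcn2, which withholds iron from bacteria, read 5.05 and 5.02 in vehicle and 9.59 and 9.46 after both agents and rose by 4.49 ± 0.11 (22.5-fold, adjusted p = 6.35e-08). A2m, a protease inhibitor that is an acute phase protein in rats, read 9.56 and 9.43 in vehicle and 13.75 and 13.77 after both agents and rose by 4.27 ± 0.09 (19.3-fold, adjusted p = 3.07e-08). The single agents differed for these 2: Lcn2 read 10.90 and 10.93 after AICAR and 5.71 and 6.06 after dexamethasone, while A2m read 7.49 and 7.72 after AICAR and 13.73 and 13.69 after dexamethasone. Il1rn, the antagonist of the interleukin 1 receptor, rose by 1.52 ± 0.08, Orm1 by 1.32 ± 0.07 and the transcription factor Stat3 by 1.00 ± 0.08. The complement genes C9 and Mbl2 fell by 0.86 ± 0.07 and 0.84 ± 0.07. Hamp, the iron hormone hepcidin, was not called against vehicle (-0.18 ± 0.09, adjusted p = 0.212), although AICAR alone read 9.46 and 9.45 against 11.53 and 11.71 in vehicle. With a trended and robust prior Hamp was called at the same difference (adjusted p = 0.03).

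Ribosomal protein and respiratory chain genes rose by under 1 on the log2 scale. All 16 measured cytosolic ribosomal protein genes were called higher (against 15.9% of all genes), by 0.26 to 0.90, with a median of 0.59. Rpl4 read 11.73 and 11.80 in vehicle and 12.68 and 12.65 after both agents and rose by 0.90 ± 0.07 (adjusted p = 3.21e-05). Against dexamethasone alone all 16 were called higher as well (14% of all genes), with a median of 0.33. Near-identical copies of ribosomal protein genes may share probes, so single genes are uncertain. Of 23 respiratory chain genes, 14 were called higher (60.9%) and none lower, with a median of 0.34. Ndufv2, a subunit of complex I, rose by 0.81 ± 0.07, and dexamethasone alone read 11.70 and 11.77, beside 11.67 and 11.68 for the combination.

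Of 26 genes of endoplasmic reticulum stress and the amino acid response, 15 were called higher and 2 lower, with a median of 0.36. These shares, 57.7% and 7.69%, stand beside 15.9% and 18.4% of all genes. Creld2, a secreted stress protein, read 10 and 9.99 in vehicle and 11.70 and 11.72 after both agents and rose by 1.71 ± 0.07 (3.28-fold, adjusted p = 5.41e-07). It lay within 0.11 of vehicle after either single agent, and the combination was above dexamethasone alone by 1.82 ± 0.07 (adjusted p = 8.29e-07). Herpud1, of protein disposal, rose by 1.56 ± 0.10, Dnajb9, a cochaperone, by 1.17 ± 0.09 and the chaperone Hsp90b1 by 1.04 ± 0.07. Ddit3, the transcription factor CHOP, read 6.37 and 6.58 in vehicle and 7.47 and 7.36 after both agents and rose by 0.95 ± 0.14. Xbp1, a transcription factor of this response, fell by 0.67 ± 0.07 and Sesn2, a stress-induced brake on mTORC1, by 0.85 ± 0.08, with the dim other probe set of Sesn2 not called (0.01).

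Plasma protein genes were more often lower than higher, and hepatocyte transcription factors less clearly so. Of the plasma protein genes 10% were called higher and 50% lower, and of the factors 17.6% and 35.3%. Over all genes these shares were 15.9% and 18.4%. Of 20 plasma protein genes, 2 were called higher and 10 lower, with a median of -0.20, with 1 higher without vehicle replicate 1 and none without vehicle replicate 2 or either array of the combination. The deepest falls were carriers of hormones: Serpina7, thyroxine-binding globulin, read 9.38 and 9.24 in vehicle and 5.32 and 5.23 after both agents and fell by 4.03 ± 0.13 (16.3 times lower), and Serpina6, which carries corticosterone, fell by 1.71 ± 0.07. Igf1, the growth factor, fell by 0.52 ± 0.08, and its other probe sets by 1.13 and 1.12. Of 17 transcription factors and nuclear receptors, 3 were called higher and 6 lower, with a median of -0.03, and 3 were lower without replicate 1 of the combination. Besides Nr0b2, Onecut1 fell by 0.92 ± 0.09. Hnf4a, a master regulator of the hepatocyte, fell by 0.31 ± 0.07 (adjusted p = 0.0111), but the call was lost without vehicle replicate 2 or either array of the combination (-0.28 to -0.33), and 1 of its other probe sets was not called (-0.09). Nr1i2, the xenobiotic receptor PXR, rose by 0.47 ± 0.08.

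Of 13 periportal zonation markers, 8 were lower (61.5%, against 18.4% of all genes) and 4 higher (30.8%, against 15.9%). The median was -0.51. On the pericentral side 5 of 14 were lower (35.7%) and 3 higher (21.4%), with a median of 0.00. With centring on the brighter probe sets, 5 were higher. Aldh1b1, a periportal aldehyde dehydrogenase, read 7.91 and 8.06 in vehicle and 5.96 and 5.91 after both agents and fell by 2.05 ± 0.09. The 4 periportal genes called higher were Asl (0.81 ± 0.08), Ass1 (0.57 ± 0.07), Arg1 (0.50 ± 0.07) and Cps1 (0.36 ± 0.08). On the pericentral list Aldh1a1 fell by 2.11 ± 0.08 and Cyp7a1 rose, as given above.

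Several large rises exceeded those of either single agent. Fabp4, a fatty acid binding protein of fat cells, macrophages and capillaries, read 4.89 and 4.50 in vehicle, 4.59 and 4.66 after dexamethasone, 4.71 and 4.79 after AICAR and 8.10 and 8.07 after both agents. It rose by 3.38 ± 0.12 against vehicle (10.4-fold, adjusted p = 3e-07) and was above dexamethasone alone by 3.46 ± 0.12 (adjusted p = 5.91e-07). Sqor read 5.79 and 6.28 in vehicle, 8.72 and 8.64 after AICAR and 10.27 and 10.37 after both agents, and rose by 4.28 ± 0.15 (19.5-fold, adjusted p = 2.64e-07). Pla2g12a, a secreted phospholipase, read 6.11 and 6.45 in vehicle, 8.01 and 8.12 after dexamethasone and 9.59 and 9.50 after both agents, and rose by 3.27 ± 0.11. Gucy2c, the receptor for guanylin peptides, read 4.06 and 4.05 in vehicle, 5.73 and 5.31 after dexamethasone and 7.20 and 7.33 after both agents, and rose by 3.21 ± 0.13. For Sqor the combination was above AICAR alone by 1.64 ± 0.15 (adjusted p = 6.18e-05), and for Gucy2c it was above dexamethasone alone by 1.75 ± 0.13 (adjusted p = 3.54e-05). Other large rises were as large or larger after dexamethasone alone. Slc5a11, a sugar transporter, read 6.29 and 6.05 after both agents and 7.54 on both arrays after dexamethasone, and its vehicle mean was below 3.84. Eif4ebp3, an inhibitor of cap-dependent translation, read 8.34 and 8.36 in vehicle, 11.77 and 11.84 after dexamethasone and 11.38 and 11.33 after both agents.

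Interferon-stimulated genes, which hepatocytes and other liver cells share, split. Of 21 measured, 9 were called higher (42.9%, against 15.9% of all genes) and 6 lower (28.6%, against 18.4%), with a median of 0.05. Isg15, a ubiquitin-like protein, read 8.31 and 8.49 in vehicle and 11.80 and 11.76 after both agents and rose by 3.38 ± 0.09 (10.4-fold, adjusted p = 7.01e-08). Usp18, which removes Isg15 from proteins, read 8.25 and 8.26 in vehicle and 10.38 and 10.28 after both agents and rose by 2.07 ± 0.07. Oas1a, whose promoter is printed above, read 7.19 and 7.22 in vehicle and 8.31 and 8.38 after both agents and rose by 1.14 ± 0.07. Gbp2, a guanylate-binding protein whose promoter holds a match to the same core, read 7.02 and 6.98 in vehicle and 4.60 and 4.22 after both agents and fell by 2.59 ± 0.14 (6.03 times lower, adjusted p = 3.1e-06). Irf1, the transcription factor, fell by 1.08 ± 0.09. The groups did not overlap for any of these 5, which also held for genes that were not called, such as Alb. Isg15 and Usp18 after both agents were not called different from dexamethasone alone (-0.12 ± 0.09 and 0.09 ± 0.07), while Gbp2 lay below it by a difference of -1.26 ± 0.14 (adjusted p = 0.000349).

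Cytokines, chemokines and other targets of NF-kB made up a list of 28 measured genes, of which 6 were called higher (21.4%, against 15.9% of all genes) and 8 lower (28.6%, against 18.4%), with a median of -0.01 (-0.17 with dim probe sets filtered out). Without replicate 2 of the combination 5 were lower. Cxcl12, a chemokine of stromal cells and endothelium, read 11.21 and 11.20 in vehicle and 8.96 and 8.81 after both agents and fell by 2.32 ± 0.08 (4.99 times lower, adjusted p = 3.33e-07). Il1b, a cytokine of macrophages, read 6.84 and 6.81 in vehicle and 4.52 and 5.37 after both agents and fell by 1.88 ± 0.25 (adjusted p = 0.000589). Ccl2, which draws monocytes, read 4.43 and 4.40 in vehicle and 6.49 and 6.48 after both agents and rose by 2.07 ± 0.07 (4.20-fold, adjusted p = 2.64e-07). It read 4.30 and 4.38 after dexamethasone and 4.82 and 4.85 after AICAR, and the combination was above each, by 2.14 ± 0.07 (adjusted p = 4.94e-07) and 1.65 ± 0.07 (adjusted p = 1.03e-06).

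Most proliferation genes fell. Of 27 measured, 22 were called lower (81.5%, against 18.4% of all genes) and 1 higher (3.7%, against 15.9%), with a median of -1.41. Ccna2, a cyclin of DNA replication and mitotic entry, read 5.82 and 6.04 in vehicle and 2.02 and 2.13 after both agents and fell by 3.85 ± 0.14 (adjusted p = 3.63e-07), to a mean below 3.84. Cdkn3, a phosphatase of cyclin-dependent kinases, read 7.64 and 7.82 in vehicle and 3.96 and 4.41 after both agents and fell by 3.54 ± 0.16. Dexamethasone alone gave a median of -1.22 and AICAR alone -0.26. Against dexamethasone alone the combination was higher in 2 of the 27 genes (14% of all genes) and lower in 2 (11.3% of all genes). Ccnd1, cyclin D1, was picked after its values were seen: it read 8.91 and 8.92 in vehicle, 6.37 and 6.59 after dexamethasone and 8.68 and 8.67 after both agents. It did not pass the test against vehicle (-0.24 ± 0.09, adjusted p = 0.0739), and the combination was above dexamethasone alone by 2.19 ± 0.09 (adjusted p = 1.15e-06). Tyms, thymidylate synthase, was the 1 gene called higher (0.46 ± 0.13, adjusted p = 0.031), and that call was lost without either vehicle array or replicate 1 of the combination (0.35 to 0.53).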

How the data were processed

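The deposited table holds 1 log2 value per probe set for each of 8 Affymetrix rat arrays, which the authors computed with RMA (R package affy) according to the submitters' processing notes. Versions and the base of the logarithm are not given in the sources used here, and log2 was inferred from the range of the values. RMA sets all arrays to 1 distribution and gives no detection call, so changes of dim probe sets tend to be understated. The number of arrays limits the precision: the median standard deviation within groups was 0.0952.

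The 57 array controls were kept out of the tests. Of 31042 probe sets tested, 20826 carried 1 gene symbol, 436 several and 9780 none here, by the platform annotation, and a look-up of gene IDs in RefSeq's GRCr8 table changed 0 symbols. A gene was represented by its probe set with the highest mean over all arrays. Differences were fitted with limma 3.58.1 in R 4.3.3 over all 8 arrays, 1 coefficient per group, with moderation on 4 residual and 4.58 prior degrees of freedom and p-values adjusted by Benjamini and Hochberg's method. The smallest two-sided p of an exact permutation test of 2 arrays against 2 is 0.333. The scripts were tested on simulated data with known changes.

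Of 740 symbols on 35 lists, 649 matched a gene. Genes were named by rule: the 15 largest rises and falls, up to 5 called genes per list and direction, all Kupffer cell and glucocorticoid-responsive genes, and a panel. The members and lists were chosen with earlier results of these data known. Replicate numbers gave no sign of pairing between vehicle and the combination, whose deviations from the group means correlated at -0.015. The value was 0.16 for vehicle with dexamethasone and -0.042 to 0.009 for the other pairs of groups. With 2 arrays per group this check cannot exclude pairing. Alternatives were the 4 arrays alone, a filter on dim probe sets, another prior, a replicate block, 2 other scalings, a 2-fold minimum, the mean of a gene's probe sets and leaving out each array.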

Additional observations from a re-analysis of the deposited data

Results flagged for a closer look

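The array controls entered no test of the comparison, and 3 of them were higher by 2-fold or more on both arrays of the combination than on either vehicle array. The 5S ribosomal RNA control was higher after both agents than after vehicle by 1.22 on the log2 scale. The beta-actin control at the 5' end was higher by 1.2 and the one in the middle of the transcript by 1.01. Smaller differences were wider spread: the beta-actin control at the 3' end was higher by 0.77 and the 3 GAPDH controls by 0.33 to 0.62. All 24 controls for dap, lys, phe and thr, bacterial transcripts that are added to samples, were lower on both arrays of the combination than on either vehicle array (-0.55 to -0.24), while after dexamethasone alone they were higher than in vehicle (0.26 to 0.58). The 18 controls for bioB, bioC, bioD and cre differed by -0.20 to 0.12. These values stand beside the 3' to 5' differences of beta-actin, which were 2.26 and 2.20 in vehicle and 1.77 and 1.83 after both agents. The part of all these in the differences of single genes was not tested.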

How the results depend on the processing

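Against vehicle, the totals of called probe sets and genes and the hepatocyte and non-parenchymal counts in each direction stayed within 1.5 times under every alternative run except the 2-fold minimum, which left 964 of 8350 probe sets and 624 of 4886 genes, 23 hepatocyte genes higher and 36 lower, and 8 non-parenchymal genes higher and 48 lower. The higher calls alone moved further: without replicate 1 of the combination they fell from 4130 to 2673 probe sets and from 2264 to 1477 genes. Of 70 counts of single lists (35 lists, higher and lower), 23 moved by over 1.5 times under at least 1 alternative other than the 2-fold minimum, 15 of them when 1 array was left out. With that minimum the combination differed in 548 probe sets from dexamethasone (6233 without it) and in 1040 from AICAR (9563 without it). Leaving out 1 of the 4 arrays at a time, with the lone array of its group assumed to vary like the other groups, gave 3698 to 5985 called probe sets against dexamethasone, the lowest without replicate 1 of the combination and 3823 without replicate 2. With the replicate number as a block, 8132 probe sets were called against vehicle, and of 287 named genes 4 lost their call (Apoa1, Csf3r, Ncf1 and Prkag2). Leaving out 1 array took the call from 21 to 30 named genes and cyclic loess from 3. Signs turned only in differences near 0 or where probe sets of a gene disagreed: Acaa2 was 0.26 and Klf9 0.15 with the probe sets of a gene averaged, Alb was -0.06 and Errfi1 -0.04 with cyclic loess, and leaving out 1 array gave -0.02 to 0.07 for Errfi1, -0.01 to 0.11 for Fam107a, -0.05 to 0.06 for Mertk and -0.02 to 0.09 for Prkaa1. The cause of these changes was not tested. Called probe sets were higher in 49.5% as deposited, 47.3% after loess and 55.6% after centring on the brighter probe sets, which moved the median of all probe sets from 0.01 to 0.04. Dim levels limit the size of changes: 30 of 191 non-parenchymal and 6 of 340 hepatocyte genes had means below 3.84 after both agents.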
